A study of Mus musculus with 8 samples.

Results

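Chrna1, Gabrp, Gjc1 and Nebl are 4 of the 39179 genes counted in this data set of 8 RNA sequencing libraries, and each belongs to a family best known from excitable tissue. They were chosen by their measured counts, since their level was higher with WT-USP21 than with ED-USP21 in cell lines 2, 3 and 4, so that difference describes the choice and is not tested here. The libraries come from 4 lines of mouse pancreatic ductal adenocarcinoma cells of the iKPC mouse model. Each line was sequenced once with overexpression of WT-USP21 and once with ED-USP21, which gave 4 libraries per construct. USP21 is a deubiquitinating enzyme, and no label explains the letters ED. Both groups share a doxycycline-inducible oncogene transgene and the alleles ROSA_rtTA and p48-Cre: the rtTA protein switches the transgene on in the presence of doxycycline, and Cre is driven by a gene of pancreatic progenitors. Whether the cultures received doxycycline is not stated in the sources used here, and cells lacking a construct were not analysed here. The mouse background is FVB/C57Bl6 for lines 1 and 2 and C57BL/6 for lines 3 and 4. The lines are the replicates.

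Excitable cells such as muscle fibres and neurons pass signals through ion channels in their membranes. Chrna1 encodes the alpha subunit of the muscle nicotinic acetylcholine receptor, the channel that opens when a motor nerve releases acetylcholine. Gabrp encodes the pi subunit of the GABA-A receptor family of chloride channels, a subunit found mainly in epithelial tissues outside the brain. Gjc1 encodes connexin 45, whose hexamers form gap junction channels between neighbouring cells in the cardiac conduction system and in vessel walls. Nebl encodes nebulette, an actin-binding protein of the cardiac Z-disc. The same gene also gives a shorter LIM-domain form that is found in non-muscle cells. Counts per gene do not separate these forms.

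Each library held 72828184 to 107551210 gene counts. Usp21 stood at 147, 944, 539 and 941 CPM (gene counts scaled to a common library total after TMM adjustment) in the WT-USP21 libraries of lines 1 to 4, against 1658, 3133, 1662 and 2721 CPM in the ED-USP21 libraries. It was thus lower with WT-USP21 in each line, and the WT-USP21 library of line 1 held the least. Every difference between the constructs goes with this difference in Usp21 amount, and its part in the results was not tested. Line 1 stood apart: 3462 to 3938 of 16192 genes tested were at least 2-fold away between its WT-USP21 library and those of the other lines, whereas lines 2 and 4 were 717 genes apart. With WT-USP21, lines 2 and 4 had a median chi-square per gene of 3.55, more than sampling noise gives, so both were kept as separate samples. Whether these lines arose independently was not tested.

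Promoter windows from RefSeq were matched for Chrna1, Gabrp and Nebl, 3 of the 4 genes. Those of Chrna1 and Gabrp are shown because both hold repeated short motifs, so the shares of all windows given below are no test of them. Both genes were also clearly higher with WT-USP21 in all 4 lines, whereas Nebl was 1.04-fold higher in line 1. Each window runs from 250 bases before to 50 bases after a transcription start, 5′ to 3′ on the gene's strand. Gabrp lies on the minus strand at chr11:33578908-33579207 and Chrna1 on the minus strand at chr2:73580289-73580588, both in build GRCm38.p6. Capitals mark CTTTGAT, the core recognised by TCF/LEF factors, which reads ATCAAAG on the other strand, and CAGCTG, a form of the E-box bound by myogenic factors.
Gabrp: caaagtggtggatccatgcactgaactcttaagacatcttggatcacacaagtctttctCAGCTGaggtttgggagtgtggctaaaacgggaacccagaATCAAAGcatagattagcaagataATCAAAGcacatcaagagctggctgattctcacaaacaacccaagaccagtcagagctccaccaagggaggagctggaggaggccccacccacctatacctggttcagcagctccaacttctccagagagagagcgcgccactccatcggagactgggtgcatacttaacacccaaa
Chrna1: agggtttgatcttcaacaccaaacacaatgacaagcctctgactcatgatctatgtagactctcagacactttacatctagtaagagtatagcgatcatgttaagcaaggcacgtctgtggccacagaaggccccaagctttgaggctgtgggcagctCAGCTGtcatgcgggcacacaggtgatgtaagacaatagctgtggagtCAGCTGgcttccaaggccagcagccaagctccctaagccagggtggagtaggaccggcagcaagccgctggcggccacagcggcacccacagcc
The Gabrp window held CTTTGAT on its reverse strand at positions -151 and -127 and CAGCTG at -191, counted from the start site. Both motifs were searched on both strands, and they do not overlap each other here. Of 32851 windows of 300 bases, 3.73% held CTTTGAT at least once and 0.100% held it more than once. The Chrna1 window held no CTTTGAT and held CAGCTG at -92 and -44. CAGCTG was present in 16.3% of all windows and more than once in 1.90%. None of the 4 windows of Nebl held either motif, and their GC content was 37.7% to 72.0%, against 54.7% in the Chrna1 window and 50.3% in the Gabrp window. TATAAA, the TATA box, was in none of the Chrna1, Gabrp and Nebl windows and in 13.6% of all windows. A match describes these letters and is not evidence of binding.

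Chrna1 (ENSMUSG00000027107) was low but clearly counted with WT-USP21. Its WT-USP21 libraries held 122, 259, 162 and 352 reads in lines 1 to 4, against 38, 17, 18 and 11 reads in the ED-USP21 libraries. In CPM these were 1.33, 2.57, 1.70 and 4.09 with WT-USP21, against 0.366, 0.230, 0.194 and 0.142 with ED-USP21. Every WT-USP21 library lay above every ED-USP21 library, and line 1 held the lowest WT-USP21 value and the highest ED-USP21 value. The group means were 2.42 ± 1.23 CPM with WT-USP21 and 0.233 ± 0.0959 CPM with ED-USP21 (SD, n = 4 each). Scaled to library size, WT-USP21 exceeded ED-USP21 28.9-fold in line 4 (95% interval 15.9 to 58.4), 11.2-fold in line 2 (6.86 to 19.5) and 8.78-fold in line 3 (5.38 to 15.2). These exact binomial intervals cover counting error within the 2 libraries of a line, not the spread between cultures.

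Gabrp (ENSMUSG00000020159) had the same separation between the constructs, with line 2 at the top in place of line 4. Its WT-USP21 libraries held 189, 753, 349 and 265 reads, against 81, 20, 49 and 25 reads in the ED-USP21 libraries of lines 1 to 4. The levels were 2.05, 7.47, 3.66 and 3.08 CPM with WT-USP21, against 0.780, 0.270, 0.527 and 0.322 CPM with ED-USP21. The groups did not overlap, and line 1 was again the lowest with WT-USP21 and the highest with ED-USP21. Group means were 4.07 ± 2.37 CPM with WT-USP21 and 0.475 ± 0.232 CPM with ED-USP21 (SD, n = 4 each). The ratio was 27.7 in line 2 (95% interval 17.8 to 45.6), 9.56 in line 4 (6.34 to 15.05) and 6.95 in line 3 (5.14 to 9.58). All 4 WT-USP21 libraries lay above all 4 ED-USP21 libraries for Chrna1 and Gabrp, as for 1.07% of genes tested.

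Nebl (ENSMUSG00000053702) was the most abundant of the 4 and the most uniform in lines 2 to 4. Its WT-USP21 libraries stood at 9.38, 69.1, 75.4 and 90.3 CPM in lines 1 to 4, against 9.03, 8.56, 12.98 and 10.97 CPM in the ED-USP21 libraries. The ED-USP21 libraries of all lines and the WT-USP21 library of line 1 thus lay between 8.56 and 12.98 CPM, and the other 3 WT-USP21 libraries lay far above them. WT-USP21 exceeded ED-USP21 8.07-fold in line 2 (95% interval 7.44 to 8.77), 5.81-fold in line 3 (5.46 to 6.18) and 8.24-fold in line 4 (7.67 to 8.85). With 634 to 7779 reads per library, counting error was small for this gene.

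Gjc1 (ENSMUSG00000034520) was near the floor of detection in lines 2 to 4 and well expressed in line 1. Its reads were 841, 55, 28 and 104 with WT-USP21, against 2388, 3, 4 and 6 with ED-USP21 in lines 1 to 4. The levels were 9.14, 0.546, 0.294 and 1.21 CPM with WT-USP21, against 23.0, 0.0405, 0.0430 and 0.0772 CPM with ED-USP21. Both libraries of line 1 lay above all 6 libraries of the other lines. The ratio of WT-USP21 to ED-USP21 was 13.5 in line 2 (95% interval 4.38 to 67.3), 6.83 in line 3 (2.39 to 26.8) and 15.6 in line 4 (6.95 to 43.6), and these wide intervals come from 3 to 6 reads on the ED-USP21 side.

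**Figure D1:**
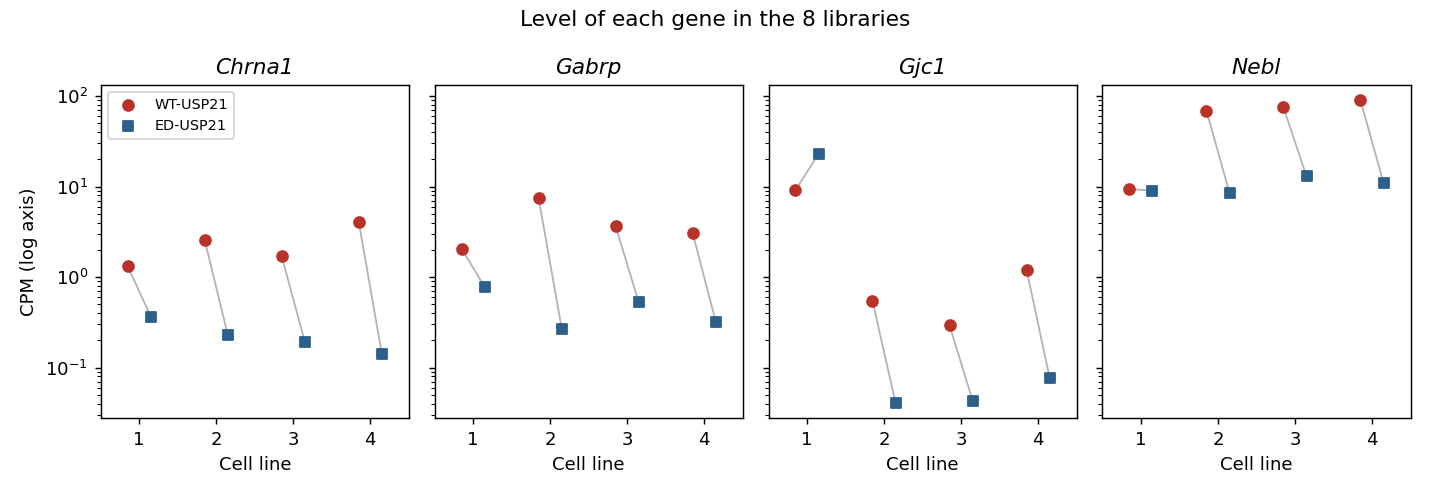
Level of Chrna1, Gabrp, Gjc1 and Nebl in CPM on a log axis in the WT-USP21 (red circles) and ED-USP21 (blue squares) library of each cell line, with a grey line joining the 2 libraries of a line. In lines 2 to 4 each WT-USP21 point lies above its ED-USP21 partner, while in line 1 Gjc1 falls at 9.14 against 23.0 CPM and Nebl at 9.38 against 9.03 CPM.

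Divided by exon length, the levels could be set against each other. For Nebl the length covers the exons of all its annotated forms, so its value per kb depends on which form the cells make. Exon lengths, taken as the union of annotated exons in GENCODE M21, were 4.39 kb for Chrna1, 3.38 kb for Gabrp, 5.003 kb for Gjc1 and 15.2 kb for Nebl. In the WT-USP21 libraries of lines 2 to 4 Nebl came first at 4.54 to 5.93 CPM per kb, and Gjc1 came last at 0.0587 to 0.241 CPM per kb. Gabrp at 0.911 to 2.21 CPM per kb and Chrna1 at 0.388 to 0.932 CPM per kb overlapped in range. In line 1 Gjc1 was the highest of the 4 with both constructs, at 1.83 CPM per kb with WT-USP21 and 4.60 CPM per kb with ED-USP21. All 4 genes passed the filter on low counts in the comparison of all lines, Gjc1 with reads mostly from line 1.

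Line 1 was not used in choosing the genes, and it shared the direction clearly for Chrna1 and Gabrp only. There Chrna1 was 3.62-fold higher with WT-USP21 than with ED-USP21 (95% interval 2.499 to 5.36) and Gabrp 2.63-fold higher (2.02 to 3.46). The ratio for Nebl was 1.04 (0.946 to 1.14), an interval that holds 1. Gjc1 went the other way at 0.397 (0.367 to 0.430), which is 2.52-fold lower with WT-USP21. So 2 of the 4 genes were at least 2-fold higher in line 1, where 6.06% of 16192 genes tested were, and 1 was at least 2-fold lower, where 3.29% were. With 1 library per construct in line 1 there is no replicate check.

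A wider count gives the frame for line 1. In each of lines 2, 3 and 4 at least 2-fold higher with WT-USP21 were 159 genes, 0.982% of those tested, and the 4 genes are among them by choice. Line by line, 3.31%, 5.01% and 5.27% of genes were at least 2-fold higher in lines 2, 3 and 4, and 4.92%, 2.2% and 5.34% at least 2-fold lower. Of the 159, 27.7% were also at least 2-fold higher in line 1, 56% were higher there by any amount and 12.6% were at least 2-fold lower. Chrna1 and Gabrp fell in the 27.7% and Gjc1 in the 12.6%. TMM scaling centres the bulk of genes, and the median log2 difference over all genes tested was within 0.02 of 0 in each line.

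**Figure D2:**
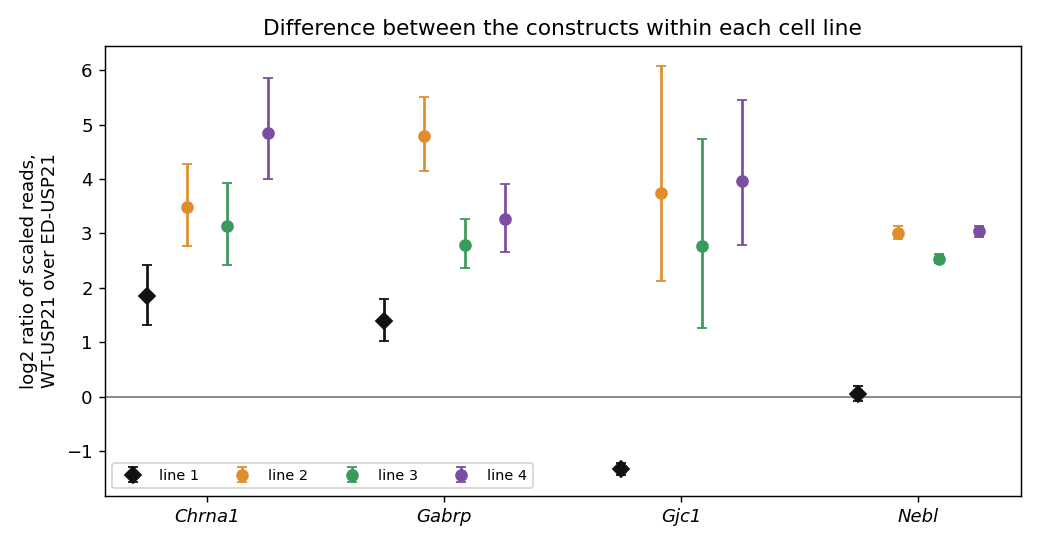
log2 ratio of scaled reads, WT-USP21 over ED-USP21, for each gene in each cell line, with 95% exact binomial intervals for counting error. Black diamonds mark line 1, which lies above 0 for Chrna1 and Gabrp, at 0.05 for Nebl and at -1.33 for Gjc1.

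**Figure D3:**
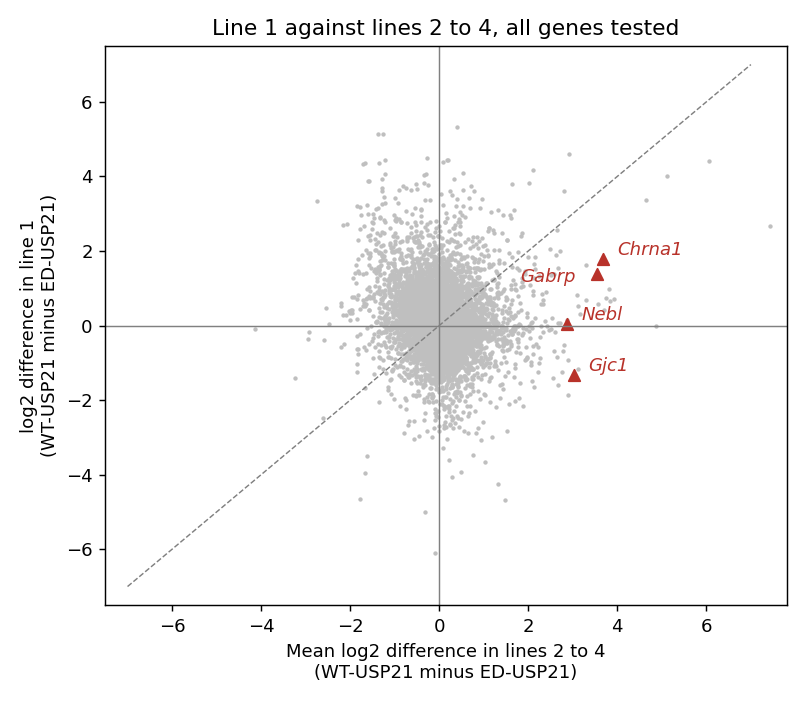
log2 difference in line 1 (vertical) against the mean log2 difference in lines 2 to 4 (horizontal) for the 16192 genes tested (grey) and the 4 genes (red triangles), with a dashed line where both are equal. The 4 genes were chosen for their horizontal position, and they spread from -1.33 to 1.80 on the vertical axis.

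On the log2 CPM scale, the mean difference over 4 lines, WT-USP21 minus ED-USP21, was 3.20 for Chrna1 (SD 1.17), 2.99 for Gabrp (SD 1.36), 2.16 for Nebl (SD 1.42) and 1.94 for Gjc1 (SD 2.25). Over lines 2 to 4 alone it was 3.67 (SD 0.87), 3.53 (SD 1.02), 2.86 (SD 0.28) and 3.03 (SD 0.69) in the same order of genes. For Nebl the spread in lines 2 to 4 was the smallest of the 4, and line 1 widened it to an SD of 1.42. All 4 genes were among the 409 called higher by edgeR in lines 2 to 4 with line as a block (2.51% of 16326 genes tested), which repeats the choice. Both directions together came to 4.57% with the block and 2.35% without it (1.49% higher, 0.851% lower). In the 4-line comparison with the block edgeR called 4 of 16192 genes (0.0247%), and none of the 4 genes described here was among them. DESeq2 called 0.371% without the block (0.309% higher) and 2.48% with it (1.93% higher, 0.55% lower), Chrna1, Gabrp and Nebl each time included. Gjc1 was not called with the block, and without it DESeq2 gave Gjc1 no p-value. These calls draw on the libraries that the choice used and are no separate support.

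Levels were also set between lines, as a description, since the sums below include the libraries that the choice used and line 1 is a single line. After both libraries of each line were added together, Gjc1 stood at 16.5 CPM in line 1, against 0.332, 0.170 and 0.672 CPM in lines 2 to 4. The log2 difference of line 1 from the other lines was 5.44. It was 3.75 among WT-USP21 libraries and 8.74 among ED-USP21 libraries, where lines 2 to 4 held 3 to 6 reads each. With line 1 assumed to vary like the others, edgeR called 18.6% of 19125 genes higher and 13% lower in line 1, so a difference of this line is common. Nebl stood at 9.20 CPM in line 1, against 43.5, 44.5 and 52.7 CPM in lines 2 to 4 (log2 -2.32). It was -3.06 among WT-USP21 libraries, which the choice used in lines 2 to 4, and -0.24 among ED-USP21 libraries (SE 0.24). In these sets edgeR called 25.3% of genes with WT-USP21 and 28.8% with ED-USP21 in either direction, on the same assumption.

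For Chrna1 the log2 difference of line 1 from the others was -0.92 (SE 0.50) and for Gabrp -0.97 (SE 0.56). Both turned with the construct. Among WT-USP21 libraries the differences were -1.07 for Chrna1 and -1.20 for Gabrp, and among ED-USP21 libraries they were 0.97 and 1.07. The genes were chosen as higher with WT-USP21 in lines 2 to 4, which favours this turn. Between the background labels, with 2 lines against 2, edgeR called 0 of 17897 genes (162 at an unadjusted p under 0.05). The log2 difference of FVB/C57Bl6 minus C57BL/6 lines was -0.39 for Chrna1 (SE 0.62), 0.59 for Gabrp (SE 0.64), 4.35 for Gjc1 (SE 1.89) and -0.88 for Nebl (SE 0.71). The Gjc1 value rests on line 1, since without it the difference was -0.33.

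The other genes of the surrounding families were tested between the constructs. Lists of 7 families held 126 other genes, of which 50 had enough reads to test over all lines. With the line as a block edgeR called 0 of the 50, against 0.0247% of all genes, and without it 0, as for all genes. DESeq2 with the block called 1 of the 50, against 2.48% of all genes. In lines 2 to 4, with the block, edgeR called 2 of 52 higher and 2 lower, against 2.51% and 2.06% of all 16326 genes. The medians of the lists in that comparison lay between -0.27 and 0.28 on the log2 scale, and the median of all genes was 0.00.

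Of the other acetylcholine receptor genes, 4 had enough reads to test. The muscle receptor is a pentamer of alpha, beta, delta and either gamma or epsilon subunits. Of these, the beta subunit gene Chrnb1 stood at 24.9 ± 3.59 CPM with WT-USP21, against 21.2 ± 1.82 CPM with ED-USP21 (SD, n = 4 each), and its log2 difference with the block was 0.23 (SE 0.11, edgeR adjusted p = 0.664). The epsilon subunit gene Chrne stood at 0.408 ± 0.134 CPM with WT-USP21 and 0.418 ± 0.202 CPM with ED-USP21. The delta gene Chrnd had 2 reads in all WT-USP21 libraries and 0 in all ED-USP21 libraries, and the fetal gamma gene Chrng had 13 against 45. Chrna5, Chrna6, Chrna7 and Chrnb3 had no read in any library.

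Genes that build the neuromuscular junction were split in level. Agrn, the gene of agrin, which clusters acetylcholine receptors, stood at 362 ± 16.5 CPM with WT-USP21 and 403 ± 78.9 CPM with ED-USP21. Its receptor kinase gene Musk had 0 reads against 5, and the receptor anchor gene Rapsn had 5 against 6. Erbb3, a neuregulin receptor gene, fell in lines 2 to 4 (log2 -1.29, SE 0.13, edgeR adjusted p = 0.00892). Its WT-USP21 libraries stood at 58.1, 11.4, 17.1 and 10.95 CPM in lines 1 to 4, against 30.4, 28.4, 33.2 and 33.6 CPM in the ED-USP21 libraries, so line 1 went the other way.

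Few GABA-A receptor genes besides Gabrp had enough reads to test. Of the 18 others, 6 had no read and 3 could be tested. Summed, the 18 stood at 2.77 to 8.45 CPM in ED-USP21 libraries, above Gabrp in each line. With WT-USP21 their sum lay above Gabrp in lines 1 and 4 and below it in lines 2 and 3. The sum was higher with WT-USP21 than with ED-USP21 in each line, by little in line 2 (3.56 against 3.50 CPM), and was not tested. The epsilon subunit gene Gabre stood at 3.38 ± 2.59 CPM with WT-USP21 and 2.63 ± 1.79 CPM with ED-USP21 (log2 with the block 0.32, SE 0.19, edgeR adjusted p = 0.751). Of the beta subunits, which most GABA-A receptors contain, Gabrb1 had 4 reads against 1 and Gabrb2 had 17 against 7. The GABA-making enzyme genes Gad1 and Gad2 had 0 against 1 and 7 against 3 reads in all libraries of a construct. Gphn, the gene of the anchoring protein gephyrin, stood at 25.3 ± 1.42 CPM with WT-USP21 and 25.3 ± 4.64 CPM with ED-USP21.

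Of the other connexin and pannexin genes, 8 had enough reads to test. Gja1, the gene of connexin 43 and a major gap junction gene, stood at 85.4 ± 10.6 CPM with WT-USP21 and 79.3 ± 12.1 CPM with ED-USP21 (log2 with the block 0.11, SE 0.14, edgeR adjusted p = 0.895). In lines 2 to 4 its log2 difference was 0.29 (SE 0.06, edgeR adjusted p = 0.0618). Gja4, the gene of connexin 37, had a log2 difference of 1.14 with the block (SE 0.30, edgeR adjusted p = 0.370) at 1.09 ± 1.38 against 0.590 ± 0.872 CPM. It was higher with WT-USP21 in all 4 lines, at 3.16, 0.457, 0.262 and 0.488 CPM, against 1.90, 0.149, 0.172 and 0.142 CPM.

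The Z-disc list held abundant cytoskeletal genes and almost no muscle-specific ones. Lasp1, the nearest relative of the short Nebl form, stood at 778 ± 56.1 CPM with WT-USP21 and 853 ± 120 CPM with ED-USP21 (log2 with the block -0.12, SE 0.08, edgeR adjusted p = 0.767). The sarcomere genes Actn2, Myoz1 and Myot had no read. Csrp2, a LIM protein gene, fell in lines 2 to 4 (log2 -0.60, SE 0.09, edgeR adjusted p = 0.0243), and line 1 stood at 58.0 against 55.6 CPM. The chaperone gene Cryab had a log2 difference of 1.22 there (SE 0.25, edgeR adjusted p = 0.0544).

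Calcium channel accessory genes made up both of the higher calls. Cacna2d1 (log2 0.66, SE 0.13, edgeR adjusted p = 0.0490) and Cacnb2 (0.35, SE 0.06, edgeR adjusted p = 0.0339), which encode an alpha2delta and a beta subunit, rose in lines 2 to 4. Cacnb2 stood at 28.3, 32.9, 31.6 and 31.5 CPM with WT-USP21, against 30.0, 27.0, 25.2 and 23.3 CPM with ED-USP21 in lines 1 to 4, so line 1 did not share its direction.

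**Figure D4:**
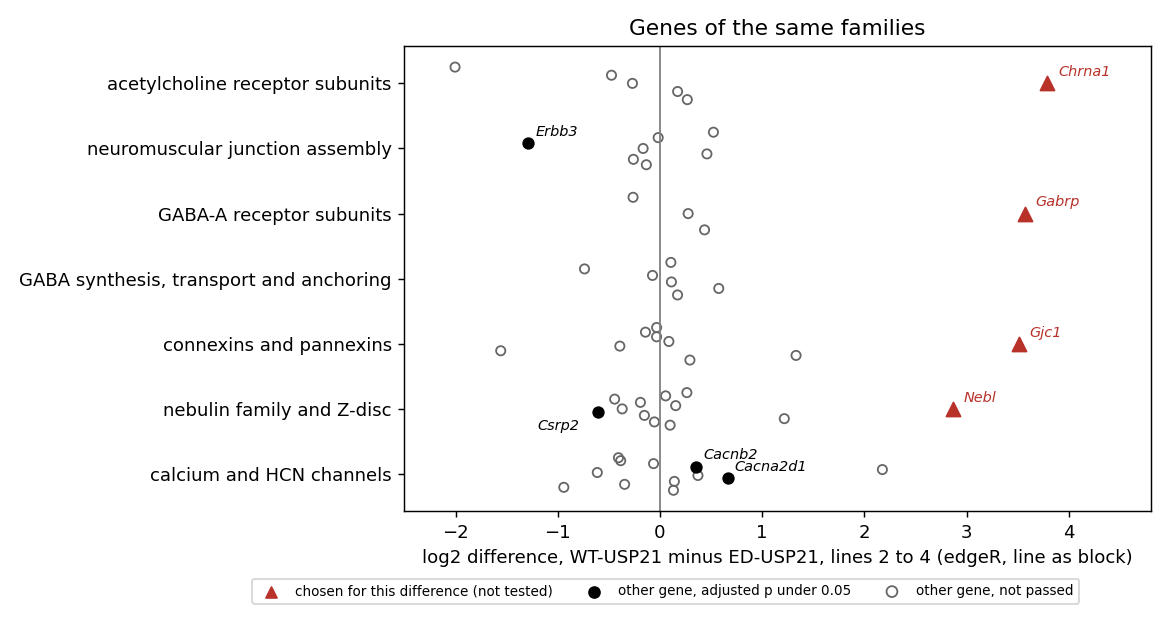
log2 difference, WT-USP21 minus ED-USP21, in lines 2 to 4 for genes of 7 families (edgeR with line as a block). Red triangles mark the 4 genes chosen for this difference, filled circles the 4 other genes that passed (Erbb3 and Csrp2 lower, Cacnb2 and Cacna2d1 higher) and open circles genes that did not pass.

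Markers of muscle and nerve were summed in each library. Skeletal muscle markers summed to 4.70 to 14.2 CPM in WT-USP21 libraries and 2.96 to 18.1 CPM in ED-USP21 libraries, with 10 of 14 detected, and the myogenic factor genes Myog and Myf5 and the myosins Myh2 and Myh4 at 0 reads. Of the 3 that could be tested, the troponin gene Tnni2 fell in lines 2 to 4 (log2 -0.67, SE 0.12, edgeR adjusted p = 0.0349). Of all genes, 2.06% were called lower there. Cardiac markers summed to 30.9 to 154 CPM and 66.2 to 144 CPM, nearly all of it the troponin gene Tnnt2 (112 ± 55.5 against 97.4 ± 32.7 CPM), while Myh6, Myl2 and Actc1 had no read. By line the cardiac sums were 30.9, 134.9, 153.9 and 135.02 CPM with WT-USP21, against 94.9, 66.2, 143.8 and 91.02 CPM with ED-USP21. They were thus higher with WT-USP21 in lines 2 to 4 and lower in line 1, but none of the 6 cardiac markers tested was called in lines 2 to 4. Neuron markers summed to 6.81 to 8.02 CPM and 5.61 to 9.51 CPM, with 11 of 12 detected and Nefm at 0. Ductal and epithelial markers, all 9 detected, summed to 7789 to 13484 CPM and 8338 to 11236 CPM. The sum was lower with WT-USP21 in each of lines 2 to 4 and higher in line 1. The keratin gene Krt19 (log2 -0.58, SE 0.09, edgeR adjusted p = 0.0261) and the mucin gene Muc1 (-0.57, SE 0.08, edgeR adjusted p = 0.0194) fell in lines 2 to 4, 2 of the 8 tested, against 2.06% of all genes.

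Of 2 endothelial markers that could be tested, the VEGF receptor gene Kdr rose in lines 2 to 4 (log2 3.90, SE 0.19, edgeR adjusted p = 0.00112). Of all genes, 2.51% were called higher there. The endothelial markers summed to 2.42 to 7.48 CPM in WT-USP21 libraries and 0.665 to 0.946 CPM in ED-USP21 libraries, with 5 of 6 detected. With WT-USP21, Kdr took most of this sum in lines 2 to 4 at 5.11, 7.07 and 7.03 CPM, against 0.378, 0.538 and 0.373 CPM, and in line 1 it stood at 0.0435 against 0.0193 CPM. Emcn was at 0 and Pecam1 had 32 against 34 reads in all. Fibroblast markers summed to 6.85 to 18.2 CPM and 4.79 to 8.39 CPM with Dcn, Lum and Thy1 at 0. Immune markers summed to 6.00 to 12.9 CPM and 5.03 to 15.8 CPM. The fibroblast sum was higher with WT-USP21 in each of lines 2 to 4 and lower in line 1. The immune sum went the other way in every line. In lines 2 to 4 the median log2 difference of the markers tested was 1.99 for fibroblast and -0.75 for immune, against 0.00 for all genes. In line 1 these medians were -0.24 and -0.22. None of the 4 fibroblast and 2 immune markers tested was called in lines 2 to 4. Their part in the levels of the 4 genes was not tested. In bulk libraries fewer cells of a kind and less RNA per cell cannot be told apart.

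Across the 8 libraries, Chrna1 and Gabrp followed each other closely (Pearson r = 0.93 of log2 CPM), and Nebl ran with them at 0.82 each. Gjc1 correlated at 0.40 with Chrna1, 0.38 with Gabrp and -0.05 with Nebl. These values describe 8 libraries that share lines and constructs, and the choice of genes fixes part of them. Among 12319 genes with a mean of at least 1 CPM, the patterns most like Chrna1 were those of Msrb3 (r = 0.99), Axin2 (0.98), Fgf18 (0.98), Casp12 (0.97) and Arhgap29 (0.97). Those most like Gabrp were Axin2 (0.97), Ptpdc1 (0.96), Pde2a (0.95), Fgf18 (0.95) and Irs1 (0.94). Axin2, a gene commonly read as a target of Wnt signalling, and Fgf18, a fibroblast growth factor gene, were in both sets.

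Nebl and Gjc1 had other companions. The genes most like Nebl were Chst11 (r = 0.98), Tspan12 (0.97), Camk2n1 (0.97), Itgb6 (0.97) and Pard6g (0.96). For Gjc1 they were Afap1l2 (0.99), Nt5dc2 (0.99), A630007B06Rik (0.99), Rhot1 (0.99) and Dcakd (0.98). An r above 0.9 was reached by 665 genes for Gjc1, 50 for Nebl, 35 for Chrna1 and 19 for Gabrp. The 5 companions of Gjc1 had line 1 differences between the constructs of -0.54 to 0.01 on the log2 scale. In lines 2 to 4 their mean differences were 0.07 to 1.62, all above 0, which picking them by correlation with Gjc1 favours.

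Position gave a further comparison, since the choice used no map. Of the 40 protein-coding genes that lie within 5 places of the 4 genes in RefSeq order, 35 were in the files and 23 could be tested in lines 2 to 4. There edgeR called 5 higher and 0 lower with WT-USP21, against 2.51% and 2.06% of all genes. In the 4-line comparison with the block it called 0 of these neighbours, against 0.0247% of all genes. Next to Chrna1 was Chn1, the gene of the Rac-regulating protein chimaerin 1 (log2 1.44, SE 0.16, edgeR adjusted p = 0.0110). Beside Gabrp lay Ranbp17, a nuclear transport receptor gene (0.90, SE 0.12, edgeR adjusted p = 0.0172), and 3 places further Fgf18 (2.62, SE 0.23, edgeR adjusted p = 0.00836). Near Gjc1 was the Wnt receptor gene Fzd2 (0.97, SE 0.09, edgeR adjusted p = 0.00840), and near Nebl was Cacnb2, described above.

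Of the 5 neighbours called, Fgf18 alone was also higher with WT-USP21 in line 1. Its WT-USP21 libraries stood at 2.33, 4.09, 3.78 and 5.23 CPM in lines 1 to 4, against 0.876, 0.648, 0.860 and 0.618 CPM in the ED-USP21 libraries, with no overlap of the groups. Such a separation of all 4 libraries was seen in 174 of 16192 genes tested (1.07%). Chn1 stood at 3.98 CPM with WT-USP21 and 6.39 CPM with ED-USP21 in line 1, the other direction from Chrna1 beside it. In line 1 Ranbp17 stood at 14.9 against 15.4 CPM, Fzd2 at 30.1 against 30.7 CPM and Cacnb2 at 28.3 against 30.0 CPM. Npm1, which lies between Fgf18 and Gabrp, had a log2 difference of 0.06 in lines 2 to 4 and did not pass, so genes of the stretch did not all move. The genes near one locus are not independent of each other, and no test of the 5 against chance was made.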

How the data were processed

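Per the labels, total RNA of mouse PDAC cells was sequenced from 4 cell lines with each of 2 constructs. The deposited values are whole-number read counts per gene, not normalised. Per the submitters' processing notes, the tools were HTSeq, STAR, CASAVA, Cufflinks and TopHat and the build was mm9. Roles, versions and strand setting are not given in the sources used here. Of the 4 members, Nebl alone overlaps genes of the other strand in the annotation, Gm13324 and Mir6419, and shares no exon with them. The 3 rows that name no gene (11.4% to 20.6% of counts) stayed out of library sizes and tests.

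The members and lists were chosen with earlier results of these data known, and the neighbour comparison was added after the data were seen. Counts were tested with edgeR 4.0.16 in R 4.3.3 (quasi-likelihood test, TMM, default filter on low counts), first without the cell line and then with the line as a block. The Benjamini-Hochberg method adjusted p-values over all genes tested, with calls under 0.05. DESeq2 1.42.0 was an alternative. An SE is the log2 change over the square root of F. The fits were also run on simulated counts in which a changed gene had the same fold change in every line. Line 1 differed from the other lines here, so that run does not show how the fits perform on these data. Levels are CPM, and their log2 values had 2 added as a prior count. Named list genes were those with the smallest p under the block, up to 5 per list, those called and those at 0 reads, plus the 5 genes most correlated with each member. The other list genes named, the marker genes and the neighbours were chosen after their values were seen.

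Libraries of 1 line number are paired, as both derive from that cell line per the labels. Deviations from the group means correlated within lines 1 to 4 at 0.770, 0.503, 0.468 and 0.347 across genes. Libraries of lines 2 and 4 also correlated across lines, at 0.364 to 0.474, above the 0.347 within line 4. The pairing thus rests on the labels, and these values do not show it for line 4. The labels do not say whether cultures were repeated, so p-values without the block measure the spread between lines. With the line as a block they measure how far the difference between the constructs varies between lines. Spread between cultures of a line cannot be separated from it. Promoter sequences and gene order are from RefSeq GRCm38.p6 and exon lengths from GENCODE M21, a later build than mm9, and 37607 of 39179 gene identifiers were in the gene name table. Some genes of the lists are not reported here.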

Additional observations from a re-analysis of the deposited data

Results flagged for a closer look

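With 18 groups of 4 values examined, 3 had 1 library or line far from the rest, where chance flags about 1 in 20. The genes were chosen as higher with WT-USP21 in lines 2 to 4, which favours an outlying line 1, and the groups share values, so that rate does not apply to them. Nebl in WT-USP21 libraries had line 1 lowest, at a log2 CPM of 3.23 with the next library at 6.11, a gap of 0.882 of the whole range. Gjc1 in ED-USP21 libraries had line 1 highest, at 4.52 with the next at -3.33, a gap of 0.922 of the range. The log2 difference of Nebl between the constructs had line 1 lowest at 0.05, with the next line at 2.54, a gap of 0.831 of the range. Gjc1 also differed in direction: its log2 difference was -1.33 in line 1 and at least 2.28 in each of the other lines. The difference in direction between lines was not tested.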

How the results depend on the processing

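Between the constructs, edgeR called 0 genes without the line as a block, with 392 at an unadjusted p under 0.05, and 4 genes with the replicate block. DESeq2 called 60, and 402 with the block. With each line left out in turn the count ran from 0 to 383 without the block and from 0 to 746 with it, the highest without line 1. Of the family genes, DESeq2 with the block called 1, and leaving out lines gave 0 to 2 without and 0 to 4 with the block. Between line 1 and the others 6041 genes were called, and 4013 to 10159 with a line left out, the lowest without line 4 and the highest without line 3. Between background labels the count was 0 with all lines, 8 without line 1 and 4610 without line 2.

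The mean log2 difference of Gjc1 turned to -1.05 when edgeR fitted it without the block, where most Gjc1 reads came from line 1. With a line left out, the means ran from 2.72 to 3.67 for Chrna1, 2.43 to 3.53 for Gabrp, 1.38 to 3.03 for Gjc1 and 1.87 to 2.86 for Nebl. Chrne, at -0.03 without the block, was 0.041 with it and 0.045 in DESeq2 with it. Leaving out line 2, 3 or 4 gave 0.039, 0.099 and 0.23 without the block and 0.16, 0.17 and 0.36 with it. Other signs that turned, none of a called value, were those of Chrna1 (0.97) and Gabrp (1.07) in line 1 against the others among ED-USP21 libraries alone. The choice of genes favours that turn. Between background labels Chrna1 was 0.84 among ED-USP21 libraries and, with a line left out, -0.92 to 0.33 (highest without line 4). Gabrp ran from -0.46 without line 2 to 1.19, and Gjc1 from -0.33 without line 1 to 5.65. Without line 2 the FVB/C57Bl6 side is line 1 alone, so that fit compares line 1 with lines 3 and 4. The cause of these turns was not tested.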
